A study of Mus musculus with 8 samples.

Results

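The AP-1 and immediate early transcription factors described here are 10 genes, Fos, Fosb, Jun, Junb, Jund, Egr1, Egr2, Nr4a1, Atf3 and Batf, taken by symbol from a table of 23846 gene entries. All 10 were found and none shared its symbol with another entry. The samples are sorted mouse bone marrow cells, profiled by RNA sequencing, with 4 libraries of TOX knockout mice and 4 of wild-type mice. TOX is a nuclear HMG-box protein of developing lymphocytes, and the series title asks how it acts in the formation of progenitors of innate lymphoid cells (ILC). The labels give neither the sorted population, the knockout allele, the age of the mice nor whether each library came from its own animal, so p-values measure only the spread between these libraries, which may be technical. Libraries are called by the number in the table's column names, 10, 11, 16 or 29, each of which occurs once per genotype.

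Immediate early genes are transcribed within minutes of a stimulus, from promoters whose activating factors are already bound, and their products then switch on later genes. FOS, FOSB, JUN, JUNB, JUND and BATF carry a basic leucine zipper and bind DNA in pairs as AP-1. ATF3 is a related zipper protein induced by stress. EGR1 and EGR2 are zinc finger factors induced downstream of MAP kinase and antigen receptor signals, and NR4A1 is an orphan nuclear receptor induced by the same signals. BATF differs from the others in lacking an activation domain and in binding composite elements together with IRF4 or IRF8. Handling and dissociation of cells are known to induce several of these genes, Fos, Jun and Egr1 among them.

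The data are FPKM as the authors deposited them, fragment counts scaled to the length of the gene model and to the mapped reads of the library, so levels can be compared between genes. Summed FPKM ran from 208351 to 632604 in TOX knockout and from 296777 to 365906 in wild-type libraries. Knockout library 16 stood apart, with 7328 genes at an FPKM of at least 1, while the other knockout libraries had 9263 to 10600 and the wild-type libraries 10425 to 10481. Its depth, read from the steps between low values, was 1.44 times that of wild-type library 10. Tox had 0.107 to 2.34 FPKM in knockout and 92.4 to 123 FPKM in wild-type libraries, and every library matched its label. Neutrophil and granulocyte marker genes, 17 of 18 in the table, summed to 12200 to 46500 FPKM in knockout and 281 to 9800 FPKM in wild-type libraries. Erythroid markers, 12 of 14 in the table, summed to 10600 to 182000 FPKM in knockout, up to 28.8% of a library's FPKM, and 5410 to 27000 FPKM in wild type, up to 7.38%. FPKM is relative to all mapped reads, so abundant transcripts take from the rest, and the part of this in the members' levels was not tested. Of 12 ILC progenitor markers, 8 fell in TOX knockout and none rose (limma adjusted p under 0.05), where 1.72% of all tested genes fell. Their sums were 196 to 781 FPKM in knockout and 2170 to 2970 FPKM in wild type. In the same test 0 of 17 neutrophil and granulocyte markers and 0 of 12 erythroid markers were called. In bulk libraries, fewer cells of a type and less RNA per cell cannot be told apart.

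The promoters of members are shown so that Fos, Fosb, Junb and Nr4a1, which had alike profiles below, can be set beside Batf and Egr2, which did not. The RefSeq windows matched 9 of the 10 genes, all but Egr1, and each window runs from 250 bases before to 50 after that start on GRCm38.p6. The windows shown are those of Fos (chr12:85473640-85473939, plus strand), Fosb (chr7:19309996-19310295, minus strand), Junb (chr8:84978699-84978998, minus strand), Nr4a1 (chr15:101266596-101266895, plus strand), Egr2 (chr10:67537619-67537918, plus strand) and Batf (chr12:85686470-85686769, plus strand), each printed along the strand of its gene. Capitals mark TGACG, the core of the cAMP response element, on either strand (CGTCA), and the CArG box, the element bound by serum response factor.
Fos: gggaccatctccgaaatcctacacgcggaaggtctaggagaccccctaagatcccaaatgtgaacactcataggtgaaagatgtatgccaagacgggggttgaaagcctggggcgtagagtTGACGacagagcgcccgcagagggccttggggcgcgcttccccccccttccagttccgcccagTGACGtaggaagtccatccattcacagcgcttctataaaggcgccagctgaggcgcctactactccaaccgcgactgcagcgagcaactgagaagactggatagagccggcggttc
Fosb: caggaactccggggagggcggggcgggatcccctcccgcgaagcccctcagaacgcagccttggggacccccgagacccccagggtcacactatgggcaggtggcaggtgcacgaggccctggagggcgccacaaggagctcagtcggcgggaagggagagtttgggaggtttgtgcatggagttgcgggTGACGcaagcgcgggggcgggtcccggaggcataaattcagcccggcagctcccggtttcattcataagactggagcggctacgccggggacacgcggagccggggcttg
Junb: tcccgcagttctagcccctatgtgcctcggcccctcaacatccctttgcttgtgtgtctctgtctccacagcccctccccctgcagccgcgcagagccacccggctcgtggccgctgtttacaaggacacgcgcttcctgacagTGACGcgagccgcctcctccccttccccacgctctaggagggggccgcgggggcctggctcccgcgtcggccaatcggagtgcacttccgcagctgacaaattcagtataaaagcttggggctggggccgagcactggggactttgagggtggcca
Nr4a1: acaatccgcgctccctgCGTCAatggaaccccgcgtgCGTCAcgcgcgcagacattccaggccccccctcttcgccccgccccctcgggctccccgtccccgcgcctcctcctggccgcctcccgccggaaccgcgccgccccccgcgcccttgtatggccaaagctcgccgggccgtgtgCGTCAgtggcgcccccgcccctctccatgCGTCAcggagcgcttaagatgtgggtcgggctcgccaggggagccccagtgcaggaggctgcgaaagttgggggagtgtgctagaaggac
Egr2: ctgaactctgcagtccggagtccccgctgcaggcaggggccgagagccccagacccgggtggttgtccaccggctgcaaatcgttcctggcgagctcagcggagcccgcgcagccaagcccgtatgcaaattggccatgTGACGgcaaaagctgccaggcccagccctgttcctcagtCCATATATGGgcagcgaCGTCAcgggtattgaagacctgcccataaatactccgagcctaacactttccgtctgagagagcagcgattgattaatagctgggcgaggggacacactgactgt
Batf: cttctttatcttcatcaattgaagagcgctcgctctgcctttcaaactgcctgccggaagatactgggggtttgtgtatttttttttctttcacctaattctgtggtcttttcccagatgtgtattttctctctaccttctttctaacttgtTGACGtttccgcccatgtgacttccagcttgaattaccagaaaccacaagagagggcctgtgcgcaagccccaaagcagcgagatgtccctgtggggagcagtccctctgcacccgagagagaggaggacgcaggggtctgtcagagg

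TGACG or its reverse complement stood in 7 of the 9 member windows, those of Fos, Fosb, Junb, Nr4a1, Egr2, Atf3 and Batf, and in 20.8% of all 32851 promoter windows of the same length. Nr4a1 held 4 matches, Fos 2, at positions -129 and -66 from the start, and Egr2 2. A CArG box was found in the Egr2 window alone of the 9, at position -72, and in 1.63% of all windows. The full element TGACGTCA and the AP-1 site TGANTCA matched no member window, against 1.79% and 7.81% of all windows, both strands being searched. A TGACG match can be part of a TGACGTCA match. These matches are letters in a short window and name no bound factor.

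Fos reached the highest single values of the members, both in library 11, and did not pass the test between genotypes. Within each of the 4 numbers the knockout value of Fos was above the wild-type value. Fos (chromosome 12, 85473901 to 85477270, mm10) had 18.0, 321, 13.3 and 14.7 FPKM in knockout libraries 10, 11, 16 and 29, and 7.37, 135, 9.36 and 6.14 FPKM in the wild-type libraries of the same numbers. Library 11 was the highest of both genotypes by far, and the groups overlapped. Knockout minus wild type on log2(FPKM + 1), the log2 fold change used throughout, was 1.01 for Fos (SE 1.06, limma adjusted p = 0.549, exact permutation p = 0.457). Fosb, a close relative of Fos, had 0, 34.9, 0.0120 and 0.0146 FPKM in knockout libraries 10, 11, 16 and 29, and 0.258, 18.4, 0 and 0.270 FPKM in wild-type libraries 10, 11, 16 and 29. It was thus above 1 FPKM in library 11 of each genotype and in no other library. The difference in Fosb was 0.06 on that scale (SE 1.18, limma adjusted p = 0.976).

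**Figure D1:**
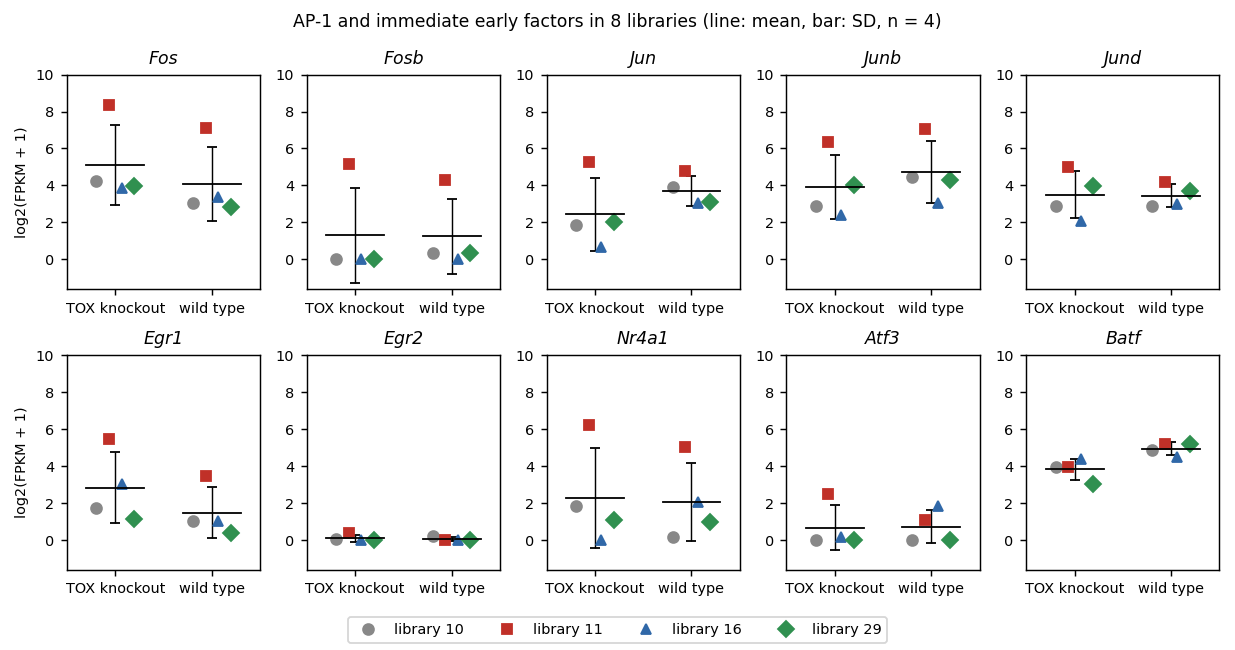
The plot of each member by library gives log2(FPKM + 1) on the vertical axis for the 4 TOX knockout libraries (left) and the 4 wild-type libraries (right), with the symbol and colour for the library number and the mean and SD drawn as line and bar. Library 11 (red squares) is highest in both genotypes for Fos, Fosb, Jun, Junb, Jund, Egr1 and Nr4a1, whereas Batf is lower in every knockout library than in any wild-type library.

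The JUN proteins, the dimer partners of FOS, followed with smaller ranges. Junb, at 6.53, 79.3, 4.26 and 15.1 FPKM in knockout libraries 10, 11, 16 and 29, had 20.7, 130.4, 7.37 and 18.6 FPKM in wild-type libraries. Library 11 was again highest in both groups, and the groups overlapped (log2 fold change -0.80, SE 0.89, limma adjusted p = 0.569). Jun had 2.59, 37.3, 0.574 and 3.1 FPKM in knockout libraries 10, 11, 16 and 29, and 13.9, 26.1, 7.42 and 7.47 FPKM in wild-type libraries. Outside library 11, each knockout value of Jun lay below every wild-type value, while knockout library 11 was the highest of all 8. The log2 fold change of Jun was -1.25 (SE 0.80, limma adjusted p = 0.357), and -1.84 (SE 0.56, adjusted p = 0.149) with both libraries numbered 11 left out. Jund, the JUN protein with the steadiest expression in most tissues, varied least of the 3, from 3.26 to 31.3 FPKM in knockout and from 6.27 to 17.1 FPKM in wild-type libraries (log2 fold change 0.05, SE 0.59, limma adjusted p = 0.957). In the GENCODE M21 annotation Jun, Junb, Jund and Atf3 each overlap a gene on the opposite strand (Junos, Prdx2, Gm11175 and Gm24748), and no source used here says whether the authors' quantification used strand. In the authors' own positions on chromosome 8, Prdx2 ends at 84974313 and Junb starts at 84976909, so these entries do not overlap there. Prdx2 had 122 and 141 FPKM in knockout and wild-type library 11, where the other libraries had 93.3 to 355 FPKM in knockout and 79.3 to 127 FPKM in wild type.

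Of the induced zinc finger and nuclear receptor factors, Egr1 and Nr4a1 were expressed and Egr2 was near 0. Egr1 had 2.31, 43.3, 7.15 and 1.21 FPKM in knockout libraries 10, 11, 16 and 29, and 1.03, 10.3, 1.06 and 0.304 FPKM in wild-type libraries. All 4 knockout values lay above the 3 lower wild-type values, and wild-type library 11 lay above all but 1 knockout value. The log2 fold change of Egr1 was 1.36 (SE 0.88, limma adjusted p = 0.364). Nr4a1 had 2.57, 72.8, 0.0188 and 1.10 FPKM in knockout libraries and 0.135, 31.3, 3.13 and 1.00 FPKM in wild-type libraries, in the same order of numbers. Away from library 11 its order differed between the genotypes, and the difference was 0.22 on the log2 scale (SE 1.23, limma adjusted p = 0.917). Egr2, whose window above holds 2 TGACG matches and the CArG box, reached at most 0.296 FPKM in knockout and 0.156 FPKM in wild-type libraries. With a mean under 1 FPKM it was not tested. Atf3 was listed at 0 in 3 libraries and reached 4.60 FPKM in knockout library 11 and 2.59 FPKM in wild-type library 16 (log2 fold change -0.06, SE 0.62, limma adjusted p = 0.955).

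Batf, the member that pairs with IRF proteins, had another pattern. Batf (chromosome 12, 85686720 to 85709087, mm10) had 14.7, 14.7, 19.7 and 7.21 FPKM in knockout libraries 10, 11, 16 and 29, and 28.95, 35.6, 21.5 and 36.5 FPKM in wild-type libraries. Every knockout value was below every wild-type value, and library 11 did not stand out in either genotype. The mean was 14.1 ± 5.17 FPKM in knockout and 30.6 ± 6.94 FPKM in wild type (SD, n = 4 each). The log2 fold change was -1.11 (SE 0.39, interval -1.95 to -0.28), which did not pass over all genes (limma adjusted p = 0.163), and the exact two-sided permutation p was 0.0286, the smallest that 4 against 4 libraries can give. With median-ratio scaling between libraries, Batf in knockout library 16 became 44.55, above the wild-type range of 17.15 to 27.3. The groups then overlapped and the log2 fold change was -0.52 (adjusted p = 0.532, with a range of 0.0369 to 0.822 over 23 alternatives). Over all tested genes the median was -0.52 as deposited and -0.04 with median-ratio scaling. The same scaling moved Fos to 1.57 and Jund to 0.59, but Fosb, Atf3 and Nr4a1 only to 0.10, 0.0048 and 0.36 on the log2 scale.

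Over the list, no member passed the test between genotypes. Of 9 members tested, 0 rose and 0 fell at a limma adjusted p under 0.05. An unadjusted limma p under 0.05 was reached by 1 member, Batf, and by 2205 of all 10693 tested genes. Of 10693 genes tested, those with a mean FPKM of at least 1, 1.92% were called, 1.72% as lower and 0.196% as higher. With median-ratio scaling 0 of 9 members and 1.98% of genes were called, and with library weights 1 of 9, Batf, and 6.81% of genes. The median log2 fold change of the 9 was 0.05, against -0.52 over all tested genes. Without knockout library 11 the contrast turned round, with medians of -1.08 for the members and -0.70 for all genes. Without both libraries numbered 11 they were -0.21 and -0.70, with the members again higher. Batf was the 1 member of 9 whose groups did not overlap, as was so for 12.1% of all tested genes (11% with knockout lower). The intervals of Fos (-1.28 to 3.30), Fosb (-2.49 to 2.61) and Nr4a1 (-2.44 to 2.89) are wide in both directions. Without knockout library 11 the log2 fold changes of Fos, Fosb, Jund and Nr4a1 turned to -0.07, -1.23, -0.45 and -1.08, with adjusted p between 0.343 and 0.959. With both libraries numbered 11 left out they were 0.93, -0.21, -0.20 and -0.10, with limma adjusted p between 0.224 and 0.925.

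**Figure D2:**
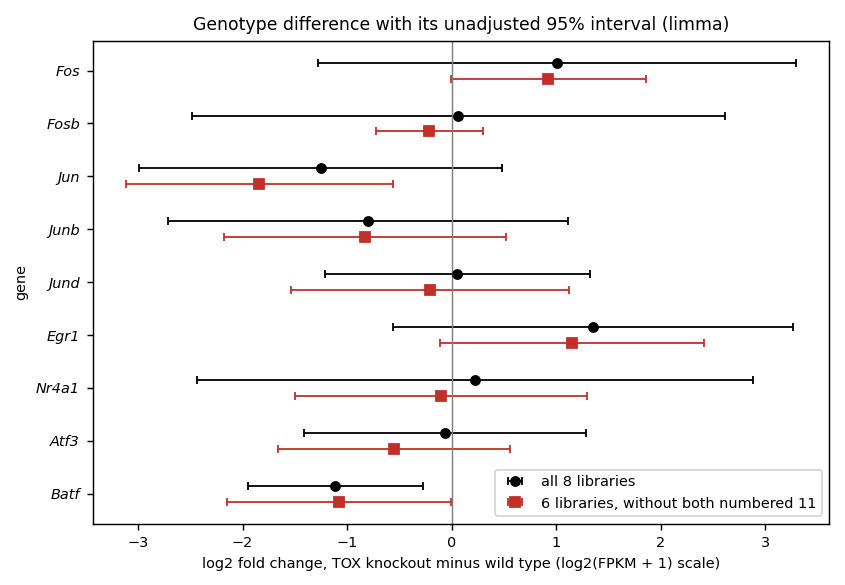
The plot of log2 fold changes gives TOX knockout minus wild type on the horizontal axis for the 9 tested members, with unadjusted 95% limma intervals, from all 8 libraries (black circles) and from the 6 libraries left without number 11 (red squares). The intervals of Fos, Fosb and Nr4a1 are narrower without those libraries, Batf stays at -1.11 and -1.08, and Jun is at -1.25 and -1.84.

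The spread between libraries of the same genotype was wider for most members than for most genes. The SD of log2(FPKM + 1) over the 4 libraries had a median of 1.92 over the 9 members in knockout and 1.38 in wild type, against 0.79 and 0.36 over all tested genes. In knockout, 8 of 9 members lay above the median of all genes, and in wild type also 8 of 9, Batf being the exception in both. Fosb and Atf3 passed the filter on the mean only through library 11. A wide spread of Fosb in both genotypes and of Atf3 in knockout thus follows in part from how they entered. Nr4a1 had an SD of 2.72 in knockout and 2.11 in wild type, at the 99.6th and 99.4th percentile of all tested genes, and Fosb and Fos were above the 98th in both. Batf, with an SD of 0.57 in knockout and 0.34 in wild type, was at the 25.5th and 46.4th percentile. All 9 members had a larger SD in knockout than in wild type, as did 86.3% of all tested genes. With both libraries numbered 11 left out, the members' median SD was 0.75 in knockout and 0.45 in wild type, against 0.78 and 0.36 over all tested genes, with 4 of 9 members above the median of all genes in knockout and 7 of 9 in wild type.

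**Figure D3:**
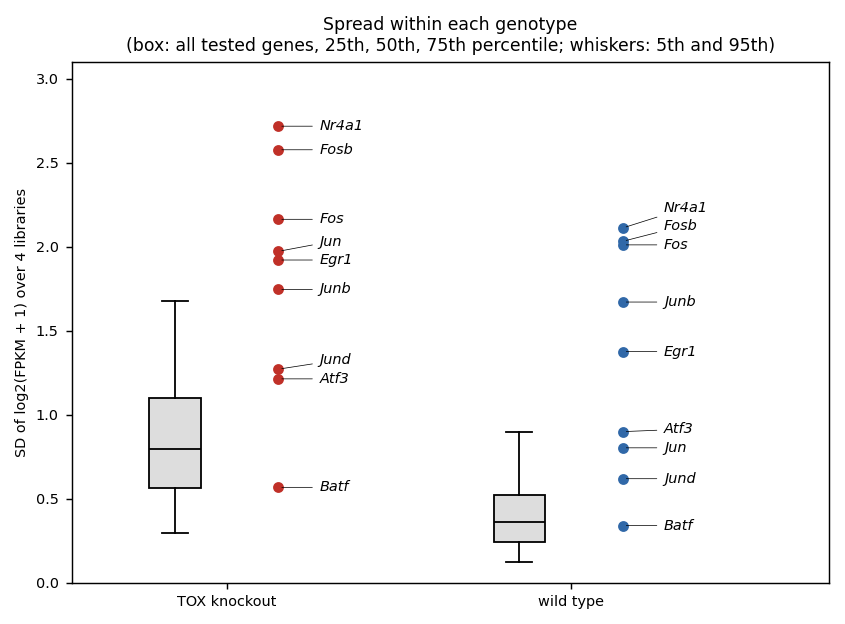
The plot of spread gives the SD of log2(FPKM + 1) over 4 libraries on the vertical axis for the 9 tested members (points) beside all 10693 tested genes (boxes from the 25th to the 75th percentile with the median, whiskers from the 5th to the 95th), in TOX knockout (left) and wild type (right). Nr4a1, Fosb and Fos lie above the upper whisker in both genotypes and Batf lies inside both boxes.

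Library 11 was the highest knockout library for 8 of the 9 tested members, against 48.1% of all tested genes, and the highest wild-type library for 7 of 9, against 19.5%. It was the highest for 7 of the 9 tested members in both genotypes, Fos, Fosb, Jun, Junb, Jund, Egr1 and Nr4a1, as it was for 11.4% of all tested genes. Fosb and Atf3 passed the filter on the mean only through library 11, and Atf3 was highest there in knockout only. Egr2, left out by that filter, was highest in knockout library 11 and wild-type library 10. Of all 10 members, library 11 was thus highest in both genotypes for 7. For 5 of the 9, Fos, Fosb, Junb, Egr1 and Nr4a1, it was also at least 2-fold above the next library in both genotypes, which held for 44 of 10693 genes, 0.411%. This pattern was noticed in the values and is given as a description. Fos in library 11 was 17.9 times the next library in knockout and 14.4 times the next in wild type. The corresponding values were 28.3 and 10.0 for Nr4a1, 6.06 and 9.73 for Egr1, and 5.25 and 6.29 for Junb. Numbers 10, 16 and 29 were highest in both genotypes for 7.66%, 1.52% and 3.97% of all tested genes.

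Some of the other immediate early genes also had library 11 high. Of 23 tested of 25 listed, 10 were highest in library 11 of both genotypes, and Ier2, Dusp1, Zfp36, Klf6 and Tnfaip3 were at least 2-fold above the next library in both. Dusp1, a phosphatase that switches off MAP kinases, had 7.41, 111, 7.90 and 10.7 FPKM in knockout libraries 10, 11, 16 and 29, and 13.5, 113, 14.7 and 11.2 FPKM in wild-type libraries. Zfp36, a protein that binds AU-rich mRNAs and speeds their decay, had 214 FPKM in knockout library 11 and 215 FPKM in wild-type library 11, against 8.24 to 42.2 and 20.8 to 32.4 FPKM in the others of each genotype. The 3 tested genes nearest to Fos in profile, by root mean square difference in centred log2(FPKM + 1) over 8 libraries, were Fosb (0.59), Cd69 (0.61) and Nr4a1 (0.72). Cd69, an early activation marker of lymphocytes, had 153 FPKM in knockout and 39.3 FPKM in wild-type library 11. Nearest to Junb were Zfp36 (0.43), Dusp1 (0.58) and the short microRNA hairpin entry Mirlet7i (0.67), which was listed at 0 in 6 libraries. Nearest to Nr4a1 were Fos, Fosb and Cd69 (0.72, 0.73 and 0.92). Nearest to Batf were Smcr7l, Dcaf15 and Fam120c, at 0.22, 0.23 and 0.24.

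**Figure D4:**
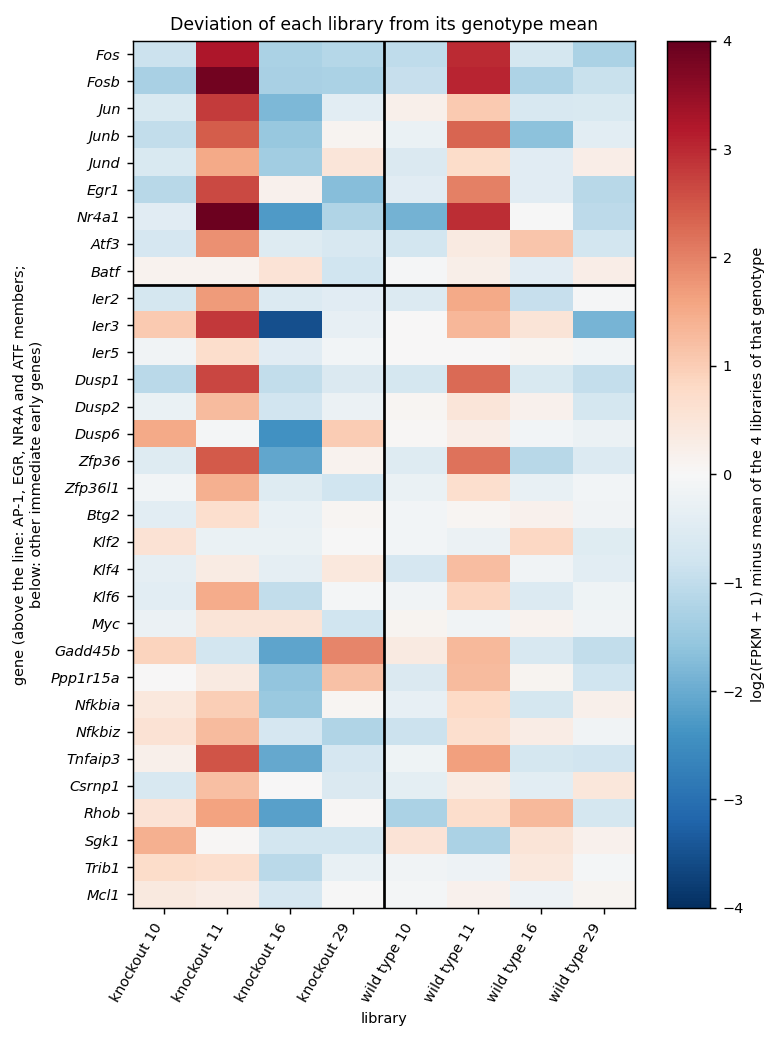
The heat map gives, for the 9 tested members (above the line) and 23 other immediate early genes (below it), log2(FPKM + 1) of each library minus the mean of the 4 libraries of its genotype, TOX knockout left and wild type right. Red columns at number 11 in both genotypes run from Fos to Nr4a1 and recur at Ier2, Dusp1, Zfp36, Klf6 and Tnfaip3, and the row of Batf is pale.

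Several measures can be set beside these values. In the column names both libraries numbered 11 carry barcodes of the range 40 to 43, as do both numbered 29, in which Fos had 14.7 FPKM in knockout and 6.14 FPKM in wild type. The names of both numbered 11 lack the leading digit that all the other columns have, and knockout library 11 carries another letter code than the other knockout libraries. What these marks stand for is not given in the labels. Their depth was 0.901 times (knockout) and 0.795 times (wild type) that of wild-type library 29. Marker genes of basophils and mast cells, 7 in all, summed to 744 FPKM in knockout library 11 and 251 FPKM in wild-type library 11, against 163 to 237 and 78.1 to 132 FPKM in the others. Of the 7, library 11 was the highest knockout library for 5, the highest wild-type library for 4 and the highest in both for 3, Ms4a2, Cpa3 and Gata2. Ms4a2, a chain of the IgE receptor, had 27.7 FPKM in knockout and 2.86 FPKM in wild-type library 11, and Gata2, a factor of basophil and mast cell development, 49.8 and 4.29 FPKM, each at least 2-fold above the next library of its genotype. Cpa3, a mast cell protease, had 511 and 226 FPKM there. Fcer1a and Prss34 were highest in library 11 of the knockout only, Mcpt8 of the wild type only, and Hdc of neither. Other marker lists were also high there. ILC progenitor markers had their highest knockout sum in library 11 (781.1 FPKM), and T lineage (165.5 FPKM) and NK and ILC1 markers (96 FPKM) their highest wild-type sums. In the opposite genotype each of these lists was inside the range of the other libraries. Gzmb, an NK marker, had 295 and 49.3 FPKM in knockout and wild-type library 11, at least 2-fold above the next. Neutrophil markers summed to 13070 and 4119 FPKM in knockout and wild-type library 11, inside the ranges of the other libraries. Erythroid markers summed to 10620 and 5407 FPKM there, the lowest sum of each genotype. Of 8 tested heat shock genes, 6 were highest in library 11 of the knockout, against 48.1% of all tested genes. In wild type 0 were highest in library 11, against 19.5%, so none was in both genotypes. Hspa1a, a heat shock gene too low to be tested, was highest there in both, at 1.96 FPKM in knockout and 0.322 FPKM in wild type. So was Hspa2, a heat shock gene outside the list, at 3.15 FPKM in knockout and 3.96 FPKM in wild-type library 11, 2.36 and 2.25 times the next library. The part of any of these in the levels of the members was not tested.

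The order of levels also differed between members. By the median over 4 libraries, the knockout order was Fos (16.3 FPKM), Batf (14.7), Junb (10.8), Jund (10.5), Egr1 (4.73), Jun (2.84) and Nr4a1 (1.84), with Atf3, Egr2 and Fosb under 0.1. In wild type it was Batf (32.3 FPKM), Junb (19.7), Jun (10.7), Jund (9.5), Fos (8.36), Nr4a1 (2.07) and Egr1 (1.04), with Atf3, Fosb and Egr2 under 1. The ranges of every pair of neighbours overlapped in both orders. Compared within each library, Fos was above Nr4a1 in all 4 wild-type libraries, and Junb above Jund in all 4 knockout libraries. Most other pairs of neighbours changed order between libraries.

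Relatives of the members gave no calls in the same test. Of 12 tested of 15 other AP-1 and ATF zipper genes, 0 passed (median log2 fold change -0.36). An unadjusted limma p under 0.05 was reached by 3 of the 12, and by 2205 of all 10693 tested genes. Ddit3, a stress-induced inhibitor of C/EBP factors, had 10.996 ± 5.28 FPKM in knockout and 24.8 ± 6.59 FPKM in wild type (SD, n = 4 each, limma adjusted p = 0.169). Crem, a cAMP-responsive modulator, had 4.61 ± 4.18 and 10.96 ± 1.89 FPKM in knockout and wild type (adjusted p = 0.187 in limma). Fosl2, the FOS relative FRA-2, had 5.32, 4.71, 0.386 and 5.77 FPKM in knockout libraries 10, 11, 16 and 29, and 0.418 to 1.34 FPKM in wild type, without the number 11 pattern (limma adjusted p = 0.227). Jdp2, a repressor of AP-1 that lies between Fos and Batf on chromosome 12, 122 kb from Fos and 46.8 kb from Batf, had 0.347 to 2.94 FPKM in knockout and 0.218 to 2.35 FPKM in wild type. Batf3, 61.4 kb from Atf3 on chromosome 1 and needed for some dendritic cells, had 15.5 ± 10.8 FPKM in knockout and 26.5 ± 7.22 FPKM in wild type (SD, n = 4 each, limma adjusted p = 0.277). Of the EGR and NR4A relatives, 3 of 6 were tested and 0 passed. Nr4a2 had 8.22 FPKM in knockout library 11 and 2.78 FPKM in wild-type library 11, against at most 0.106 and 0.914 FPKM in the others. Nab1 and Nab2, corepressors of EGR factors, had adjusted p of 0.820 and 0.803 in limma.

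Among genes acting around the members, 2 passed. Over all tested genes 0.196% passed as higher and 1.72% as lower in TOX knockout. In the same test Klf4, a zinc finger factor of monocytes listed with the immediate early genes, rose, the 1 of 23 that passed. It had 4.82, 8.41, 4.82 and 9.11 FPKM in knockout libraries 10, 11, 16 and 29, and 0.0432, 2.83, 0.495 and 0.223 FPKM in wild-type libraries (log2 fold change 2.20, SE 0.48, limma adjusted p = 0.0376). The groups of Klf4 did not overlap, and monocyte markers, Klf4 among them, summed to 320 to 2420 FPKM in knockout and 157 to 825 FPKM in wild type. Their part in the level of Klf4 was not tested. Rps6ka3, the kinase RSK2 downstream of ERK that phosphorylates FOS and CREB, fell, the 1 of 21 upstream kinase and SRF genes that passed. It had 0.881, 3.57, 0.148 and 0.849 FPKM in knockout libraries and 9.70, 16.8, 4.07 and 10.7 FPKM in wild-type libraries (log2 fold change -2.32, SE 0.52, limma adjusted p = 0.0423). With median-ratio scaling Klf4 passed, at a log2 fold change of 2.53, and Rps6ka3, at -1.98, had an adjusted p of 0.0548 in limma. Klf4 passed without knockout library 11 or 16 or wild-type library 11 but failed without any of the other 5, and Rps6ka3 passed without knockout library 11 or wild-type library 16 but failed without any of the other 6. Over the alternatives the adjusted p ran from 0.0205 to 0.447 for Klf4 and from 0.0119 to 0.565 for Rps6ka3.

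The calcium branch and the partners of BATF held no gene that passed. Of 12 calcineurin and NFAT genes, Ppp3r1, Stim1 and Nfatc3 had the smallest p. Stim1, the calcium sensor of the endoplasmic reticulum, had 4.797 ± 3.83 FPKM in knockout and 13.4 ± 1.73 FPKM in wild type (SD, n = 4 each, limma adjusted p = 0.152). Ppp3r1, the regulatory subunit of calcineurin, had 5.48 ± 5.21 and 14.5 ± 3.78 FPKM in knockout and wild type (limma adjusted p = 0.152), and Nfatc3 had 11.5 ± 6.89 and 21.9 ± 5.06 FPKM (adjusted p = 0.225). Of 4 IRF genes, Irf8, a partner of BATF in myeloid and dendritic cells, had 55.4, 79.5, 10.4 and 42.4 FPKM in knockout libraries 10, 11, 16 and 29, and 8.24, 9.92, 19.2 and 9.17 FPKM in wild-type libraries. Library 16 was the lowest in knockout and the highest in wild type, and the test did not pass (limma adjusted p = 0.145). Irf8 passed as higher under 5 of 23 alternatives, median-ratio scaling among them. Irf4 stayed at or below 3.74 FPKM in knockout and 2.68 FPKM in wild type, and Irf1 at 29.4 ± 16.4 and 42.97 ± 6.67 FPKM (limma adjusted p = 0.364). Of 8 heat shock genes 0 passed, with Dnaja1, Hspa8 and Hsp90ab1 the nearest (limma adjusted p = 0.260, 0.268 and 0.3004).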

How the data were processed

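RNA sequencing values of 8 libraries, 4 TOX knockout and 4 wild type, were read from 1 table. A SMARTer low-input kit and an Ion Proton sequencer were used, per the labels' protocols. The authors deposited FPKM made with Cufflinks on mm10, per the submitters' processing notes. No version, aligner or annotation is given in the sources used here. Column names give genotype and a number unlike those of the titles, so columns were assigned to groups only. Starts in the table are counted from 0 and are printed from 1.

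Genes averaging 1 FPKM or more were compared on log2(FPKM + 1), which understates changes of low genes, with limma 3.58.1 in R 4.3.3 (mean-variance trend, Benjamini-Hochberg over 10693 genes, threshold 0.05), a fit tested on simulated data. The rule for named genes took all members, called genes of each list or else the 3 with the smallest p, listed neighbours, and the 3 nearest profiles of 4 members. Prdx2, Hspa1a, Hspa2, Gzmb, the basophil genes and the genes counted with library 11 were named after their values were seen. Dusp1 and Zfp36 were counted with library 11 and are also named by rule, as nearest profiles of Junb. The members and lists were chosen with earlier results of these data known. The absolute depth is unknown, and steps between low values gave relative depth within a barcode range. Alternatives changed the pseudocount, the filter, the scaling, the weights, the block and the libraries used. Promoters came from RefSeq.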

Additional observations from a re-analysis of the deposited data

Results flagged for a closer look

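Of 58 groups of 4 libraries, 10 held a library far from the other 3 by Dixon's gap over range on log2(FPKM + 1). The groups are 29 genes named by rule, in each genotype, without Tox and the genes named only as nearest profiles. Chance flags about 1 in 20 groups, and the same rule over all tested genes flagged 6.62% of 21315 groups. That share is not a like background for the 10. Fosb, Atf3 and Nr4a2 passed the filter on the mean only through library 11, and Egr2 did not pass it. In 7 of the 10 the far library was library 11, high. Fos was at 321 FPKM in knockout library 11 and 135 FPKM in wild-type library 11, against at most 18.0 and 9.36 FPKM in the others. Fosb was at 34.9 FPKM in knockout and 18.4 FPKM in wild-type library 11, against at most 0.0146 and 0.270 FPKM. In knockout alone, library 11 stood apart for Atf3 at 4.60 FPKM, for Egr2 at 0.296 FPKM and for Nr4a2 at 8.22 FPKM, with the next values at 0.121, 0.0307 and 0.106 FPKM. Egr2 was also high in wild-type library 10, at 0.156 FPKM against 0.00943 FPKM, both very low levels. A library was low for 2 genes, Fosl2 in knockout library 16 at 0.386 FPKM (next 4.71 FPKM) and Irf1 in knockout library 29 at 4.97 FPKM (next 35.9 FPKM).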

How the results depend on the processing

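No member passed in any of 23 alternatives, except Batf with library weights (log2 fold change -1.11, adjusted p = 0.0369), where 1 member was called. Under all 23 Jun (-2.24 to -0.15), Junb (-1.604 to -0.023) and Batf (-1.71 to -0.28) were lower and Egr1 (0.48 to 2.11) higher in knockout, so the difference in Junb came close to 0. Signs turned for Fosb with a pseudocount of 0.1 (-0.61), library weights (-0.36) and without both libraries numbered 11 (-0.21, or -0.15 with median-ratio scaling). They turned for Atf3 with median-ratio scaling (0.0048), and without knockout libraries 16 and 29 together (0.51), and for Jund with libraries scaled to the same sum (-0.17) and without both numbered 11 (-0.20), as for Nr4a1 (-0.10). Within barcodes 17 to 20 alone Fosb, Jund and Nr4a1 were at -0.16, -0.44 and -0.18, and within barcodes 40 to 43 alone Atf3 was at 0.71.

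All genes called numbered 205. They were 106 with a pseudocount of 0.1, 74 with no filter, 116 with a mean FPKM of at least 5, 496 with libraries scaled to the same sum, 728 with library weights, 0 within barcodes 17 to 20 and 13 within barcodes 40 to 43. They were 106 without both numbered 11 and 36 with median-ratio scaling as well. As deposited 184 fell and 21 rose, and with median-ratio scaling 119 and 93, with quantile normalization 137 and 89. Of other immediate early genes 0 passed with a pseudocount of 0.1, no filter, a mean of at least 5, either barcode range alone, without knockout 16 and 29 together, or without both numbered 11 and median-ratio scaling, and 3 (Dusp2, Klf2 and Klf4) with median-ratio scaling, quantile normalization or library weights. Of upstream kinase and SRF genes 0 passed under those that gave 0, under median-ratio scaling and quantile normalization, and without both numbered 11. Irf8 was the 1 of the IRF genes called with median-ratio scaling, quantile normalization, library weights or without knockout 16 and 29. Stim1 was the 1 calcineurin and NFAT gene called with scaling to the same sum or library weights, and Fosl2 the 1 zipper gene with library weights. The cause of these shifts was not tested.

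Leaving out each library in turn gave ranges. The count for all genes ran from 85 to 552. The count for other AP-1 and ATF bZIP factors ran from 0 to 1. The count for other immediate early genes ran from 0 to 3. The count for upstream MAP kinases and SRF ran from 0 to 1. The count for calcineurin and NFAT ran from 0 to 1. The count for BATF and IRF partners ran from 0 to 1. The Fos log2 fold change ran from -0.072 to 2.01. The Fosb log2 fold change ran from -1.23 to 1.08. The Jund log2 fold change ran from -0.45 to 0.52. The Nr4a1 log2 fold change ran from -1.08 to 1.21. The Atf3 log2 fold change ran from -0.67 to 0.31. That of Jun ran from -2.19 without knockout library 11 (adjusted p = 0.0507) to -0.66 without knockout library 16, that of Junb from -1.604 without knockout library 11 to -0.023 without wild-type library 11, and that of Egr1 from 0.48 without knockout to 2.03 without wild-type library 11. The median SD of the members in TOX knockout ran from 0.75 to 2.17. The median SD of the members in wild type ran from 0.45 to 1.64. The count of all genes was 552 without knockout library 11, 165 without 10, 316 without 16 and 90 without 29, and 85, 85, 113 and 86 without wild-type libraries 10, 11, 16 and 29.

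With the shared column number as replicate block, 344 genes and 0 members were called, with Fos at 1.01 (adjusted p = 0.186) and Egr1 at 1.36 (adjusted p = 0.128). In that fit 4 of 9 members had an unadjusted limma p under 0.05, as did 2377 of 10693 genes. They were Egr1 (0.0129), Batf (0.0266), Jun (0.0284) and Fos (0.0314). Without the block 1 member and 2205 genes did. Deviations of same-numbered libraries from their genotype means correlated at 0.258 for number 11 and between -0.0206 and 0.0387 for the other 3 over all tested genes. The main test did not pair the libraries by number, because the labels state no covariate. The labels do not say what the numbers stand for, so whether they pair the libraries is not known. Number 11 was the best match of its own number from both sides, and numbers 16 and 29 from neither. The 2 fits without number 11 were chosen after the data were seen. The median SD of the members without both numbered 11 was 0.75 in knockout and 0.45 in wild type. Absolute depth is unknown, so no floor can be given for values at 0.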

Other observations

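Genes outside the lists were also highest in library 11 of both genotypes and at least 2-fold above the next library in each, among the 44 counted above. They were named after their values were seen. Ccl3 and Ccl4, chemokines released on activation, had 117 and 223 FPKM in knockout library 11 and 28.7 and 32.1 FPKM in wild-type library 11, against at most 14.3 and 11.4 FPKM in the other knockout and 8.79 and 4.08 FPKM in the other wild-type libraries. Rgs1, a regulator of G protein signalling induced in activated lymphocytes, had 176 FPKM in knockout and 81.3 FPKM in wild-type library 11, against 0.150 to 11.6 and 5.58 to 8.60 FPKM in the others. These values are a description of 2 libraries, with no test.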
